A study of Homo sapiens with 12 samples.

Results

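The genes described here are 40 genes of mitosis, the spindle checkpoint and the kinetochore, followed across 12 RNA-seq libraries of the human triple-negative breast cancer line MDA-MB-231. They were chosen by symbol and matched to the gene IDs of the deposited count files. All 40 were found among the 64252 gene IDs, and all 40 were among the 15094 genes that passed the filter on low counts. The series asks how changes in DICER1, the enzyme that cuts microRNA precursors, affect this line. Every library came from cells transfected with a Dicer plasmid by lipofectamine. The 3 libraries of the comparison group received wild-type Dicer, and 3 libraries each received Dicer carrying mutation 1, mutation 2 or mutation 3, which the labels number without naming the change. Untransfected and empty-plasmid cells are not analysed here, so each mutation is compared with another transfected group. The labels do not say whether the line's own DICER1 gene was intact, nor whether the libraries of a group came from separate cultures. The p-values below therefore measure the spread between these libraries, which may be technical. The replicate numbers of the mutant libraries are only names.

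A cell enters mitosis when CDK1 bound to a B-type cyclin becomes active, which the CDC25 phosphatases bring about. Kinetochores, large protein assemblies on the centromeres, then attach the chromosomes to spindle microtubules, and unattached kinetochores keep the spindle checkpoint on. Once all are attached, the anaphase-promoting complex with CDC20 marks securin and cyclin B for destruction, separase opens the cohesin rings, and the cell divides at an anillin-lined furrow. Most of these genes are transcribed late in the cell cycle, so in a bulk sample fewer cells near mitosis and less RNA per cell cannot be told apart.

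The libraries held 13507341 to 17078273 assigned counts. Values are CPM, the share of a library's counts that fell on a gene, scaled by edgeR's trimmed mean of M-values. The line's identity markers, such as VIM and EGFR, were at 157 to 1880 CPM in every library, ESR1 was at most at 0.653 CPM, and PGR at most at 0.074 CPM. ERBB2, the third receptor by which the triple-negative class is defined, was measured at 68.3 to 111 CPM. The 12 markers of other cell types summed to 32.1 to 43.3 CPM in wild type, 37.9 to 40.2 with mutation 1, 22.1 to 26.2 with mutation 2 and 27.7 to 31.1 with mutation 3, with CD3E, MS4A1 and DCN at 0 in every library. COL1A1 was at 11.4 to 35.6 CPM, and PECAM1 was at 17.07 and 15.3 CPM in wild-type replicates 2 and 3 and at 0.351 to 2.75 CPM in the other libraries. The part of these markers in the results was not tested. DICER1 itself lay between 27.3 and 47.4 CPM. Wild-type replicate 1 stood apart from the other wild-type libraries. Its counts differed from replicates 2 and 3 by a chi-square of 150.5 and 143 per degree of freedom, where replicates 2 and 3 differed by 1.256 and mutant libraries of 1 group by at most 3.515. Mitochondrially encoded mRNAs took 1.34% of its counts against 5.04% and 5.09% in replicates 2 and 3, 1.27% to 1.36% with mutation 1 and 4.48% to 5.57% with mutations 2 and 3, and the part of this share in the results was not tested. Among the 40 genes, 9 were over 1.5 times higher in replicate 1 than the mean of replicates 2 and 3, and 2 were lower by more than that. The median coefficient of variation over the 40 genes was 15.6% in wild type and 2.53% to 3.54% in the mutant groups. Results against wild type are therefore given with replicate 1 and, where it matters, without it. Without it only replicates 2 and 3 remain in wild type, and the libraries within every group differ little. Calls are then more frequent among all genes: 33.0% were higher with mutation 2, against 16.9% with all libraries. Smaller p-values without replicate 1 measure this narrow spread, which may be technical, and are not stronger evidence.

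The 40 genes together were lowest with mutation 3. Their summed expression was 6574, 6097 and 6137 CPM in the wild-type libraries, 7112, 7302 and 7117 with mutation 1, 6875, 6732 and 6792 with mutation 2, and 5539, 5623 and 5699 with mutation 3. All 3 mutation 3 libraries lay below the other 9. As a plain share of counts, the genes took 0.640% to 0.710% in wild type and 0.649% to 0.671% with mutation 1. With mutation 2 this share was 0.715% to 0.724%, and with mutation 3 it was 0.539% to 0.557%. Mutation 3 was thus lowest both ways, whereas mutation 1 was highest only after scaling. The sum weighs abundant genes most, and single genes followed different orders. The group mean was highest with mutation 2 for 21 genes, with mutation 1 for 13 and in wild type for 6, and no gene was highest with mutation 3. The lowest mean was that of mutation 3 for 19 genes, mutation 1 for 12, mutation 2 for 6 and wild type for 3. The highest group mean was a median of 1.69 times the lowest, and 12 genes spanned more than 2 times. An F test over the 4 groups called 39 of the 40 genes, against 83.0% of all genes tested, with CDC25C the exception, and the heat map shows them by library.

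**Figure D1:**
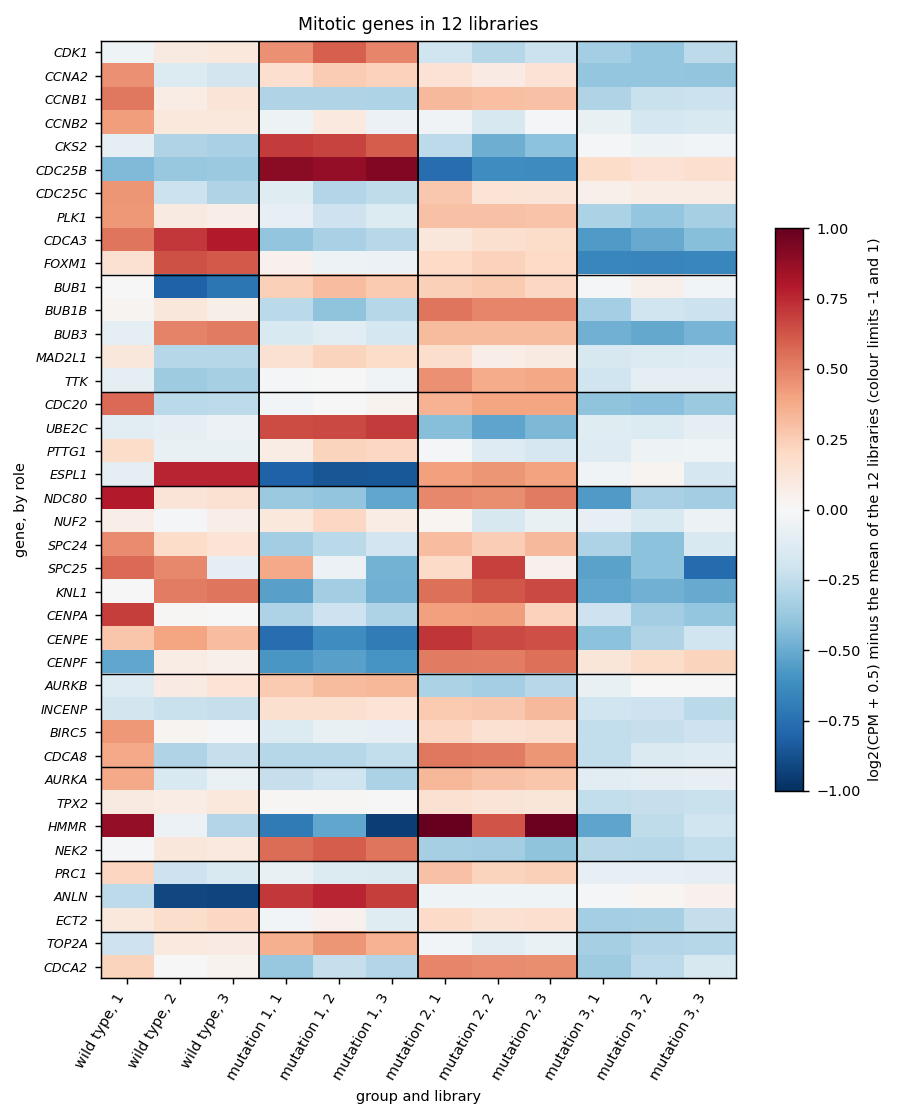
Heat map of the 40 genes (rows, ordered by role) in the 12 libraries (columns, grouped by Dicer plasmid), coloured by log2 of CPM relative to the gene's mean over all libraries. Most kinetochore genes are high with mutation 2 and low with mutations 1 and 3, CDC25B, UBE2C and ANLN are highest with mutation 1, and wild-type replicate 1 differs from replicates 2 and 3.

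Promoter sequence was looked at because many late cell cycle genes share CCAAT boxes, bound by NF-Y, and the cell cycle gene homology region TTTGAA or TTCGAA, bound by MuvB complexes. RefSeq windows of 300 bases (250 before to 50 after the start, GRCh38.p14) were matched for 31 of the 40 genes, in 41 windows. AURKA, BIRC5, BUB3, CDCA2, FOXM1, KNL1, TPX2, TTK and UBE2C were not matched. On either strand, 26 of 31 genes (83.9%) held CCAAT, against 39.7% of all 27305 genes in the table and 42.6% of the 10850 of them that were tested for expression. TTTGAA or TTCGAA was present for 24 of 31 genes (77.4%), against 19.5% of all and 15.4% of those tested. Before the start only, 18 of 31 genes (58.1%) held it, against 17.2% and 13.4%. The E2F-type sequences TTTGGCGC, TTTCCCGC, TTTCGCGC or TTTGCCGC were present for 2 of 31 genes (6.45%), against 3.99% of all and 6.52% of those tested, so they were no commoner than among tested genes. Matches that overlap were each counted, and a match describes the letters and not a bound site. The 6 stretches below belong to the genes with the lowest p in the F test among those with a TTTGAA or TTCGAA match before the start. They end at the last base before the start, and capitals mark matches to any of these motifs on either strand, so that CCAAT read from the other strand appears as ATTGG and TTTGAA as TTCAAA. Where a gene has several RefSeq starts, as CDC25B does, the start with the nearest match is shown. They lie at chr20:3796227-3796309 on the plus strand for CDC25B, chr15:40161036-40161068 on the plus strand for BUB1B, chr9:89311037-89311194 on the plus strand for CKS2, chr10:60778340-60778477 on the plus strand for CDK1, chr11:62123894-62124010 on the plus strand for INCENP and chr7:36389826-36389861 on the plus strand for ANLN.
CDC25B: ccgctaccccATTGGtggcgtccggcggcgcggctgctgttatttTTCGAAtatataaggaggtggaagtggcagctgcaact
BUB1B: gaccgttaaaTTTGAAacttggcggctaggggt
CKS2: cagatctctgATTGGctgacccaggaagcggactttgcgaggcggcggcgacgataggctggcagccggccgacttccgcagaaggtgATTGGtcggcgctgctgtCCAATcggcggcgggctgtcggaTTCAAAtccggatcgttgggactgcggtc
CDK1: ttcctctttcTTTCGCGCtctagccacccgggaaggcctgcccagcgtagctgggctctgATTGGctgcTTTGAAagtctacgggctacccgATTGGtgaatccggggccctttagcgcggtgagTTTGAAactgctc
INCENP: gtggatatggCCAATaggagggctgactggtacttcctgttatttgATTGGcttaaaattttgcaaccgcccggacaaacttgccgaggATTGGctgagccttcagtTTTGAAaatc
ANLN: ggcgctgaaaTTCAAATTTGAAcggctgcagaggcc
The match in CDC25B begins 38 bases before the start, that in BUB1B 23, that in CKS2 29 and that in INCENP 10. CDK1 holds matches at 69 and 13 bases before the start, and ANLN at 26 and 20. These 6 genes carry the same kind of element and did not share an order of expression: the group mean was highest with mutation 1 for CDC25B, CKS2, CDK1 and ANLN and with mutation 2 for BUB1B and INCENP.

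Against wild type, mutation 1 left the 40 genes divided. CDC25B, CKS2, UBE2C, BUB1 and ANLN were called higher and at least 1.5-fold apart, and CDCA3, ESPL1, CENPE, KNL1, NDC80 and HMMR lower by as much. In all, 12 genes (30.0%) were higher and 19 (47.5%) lower at an adjusted p under 0.05, against 32.5% and 36.5% of all genes tested, so the higher calls were about as frequent as among all genes. No library of one group fell among those of the other for 33 genes (82.5%), against 68.0% of all genes, and 11 genes were called and at least 1.5-fold apart, against 52.6%. The median log2 fold change was -0.23, against -0.04 over all genes. Scaling by library totals alone gave 8 higher and 23 lower, but it also moved the median over all genes to -0.25. The shares of all genes called under that scaling are not given, so these counts are not a result about the 40 genes. Without wild-type replicate 1, 16 genes were higher and 20 lower, against 40.2% and 42.5% of all genes, with a median of -0.09. All 31 calls were kept in the same direction without it, 4 genes were added, and CDC20 turned from -0.06 to 0.28.

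Mutation 2 gave the fewest calls against wild type. BUB1, TTK, CENPF, ANLN and CDCA8 were among the higher genes, and CDCA3, NEK2, UBE2C and AURKB among the lower. With all libraries, 10 genes (25.0%) were higher and 7 (17.5%) lower, against 16.9% and 20.1% of all genes, and the libraries of 19 genes (47.5%) did not overlap, against 42.6%. Only 4 were called and at least 1.5-fold apart, against 19.3%. The median log2 fold change was 0.05, against -0.01. This comparison depended most on wild-type replicate 1: without it 22 genes were higher and 11 lower, against 33.0% and 34.9% of all genes, and the median was 0.19. The 17 calls were kept in the same direction, and 16 genes were added. Over all genes, replicate 1 had a Spearman correlation of 0.973 to 0.974 with the mutation 2 libraries and 0.945 with its own group, given here as a description.

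Mutation 3 gave mostly lower values than wild type. FOXM1, CDCA3, BUB3, KNL1, NDC80 and the barely counted SPC25 had log2 fold changes of -0.81 or below, and CDC25B, ANLN, BUB1 and CKS2 were the 4 higher genes. In all, 4 genes (10.0%) were higher and 23 (57.5%) lower, against 28.1% and 31.2% of all genes. Libraries did not overlap for 27 genes (67.5%), against 61.0%, and 10 genes were called and at least 1.5-fold apart, against 41.1%. The median log2 fold change was -0.34, against -0.01. Without wild-type replicate 1, 10 genes were higher and 25 lower, against 38.2% and 38.8%, and the median was -0.23. The 27 calls were kept in the same direction, 5 genes were added, and MAD2L1, CDCA8 and PRC1, not called before, turned to higher. The 3 comparisons share the wild-type libraries, so their values are set side by side and no overlap between them is counted.

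**Figure D2:**
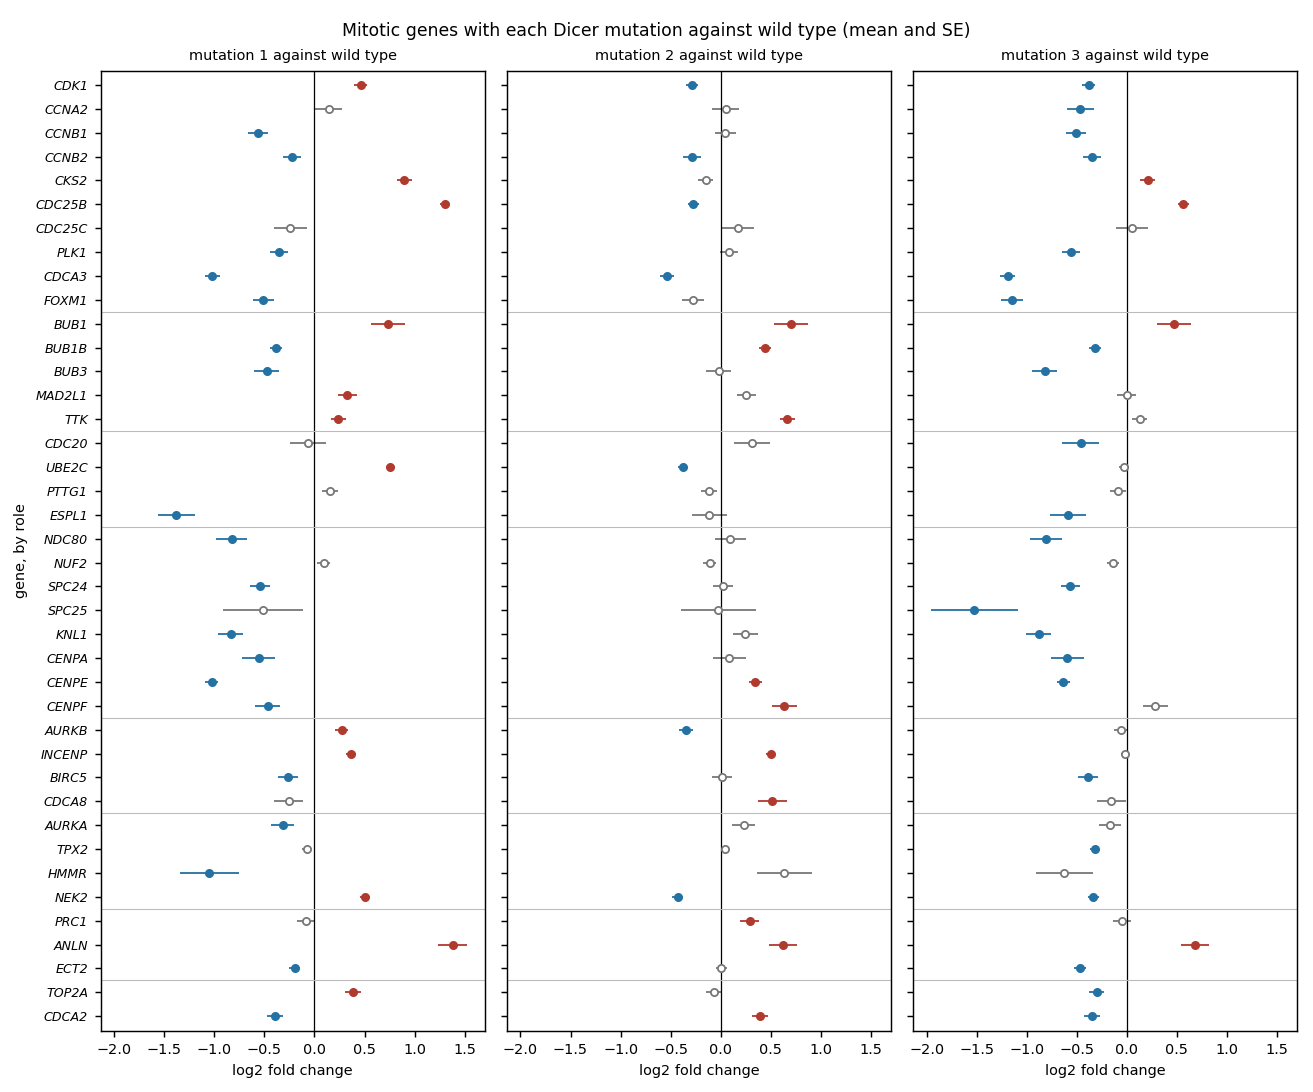
Log2 fold change of each of the 40 genes against wild type (x axis) for mutations 1, 2 and 3 (panels), with bars for 1 SE and filled points for an adjusted p under 0.05 (red higher, blue lower). CDC25B and ANLN lie farthest to the right with mutation 1, ESPL1 farthest to the left, and most filled points with mutation 3 lie left of 0.

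The fold changes between mutations do not use the wild-type values, although all groups share one estimate of the spread. Mutation 2 against mutation 3 gave the most one-directional result: 28 genes (70.0%) were higher with mutation 2 and 4 (10.0%) lower, against 27.2% and 25.7% of all genes. Its median was 0.48, against 0.00 over all genes, 36 genes did not overlap, against 75.9%, and 16 passed both the test and a 1.5-fold difference, against 34.6%. The 4 genes lower with mutation 2 were CDC25B, CKS2, UBE2C and AURKB. Mutation 1 against mutation 2 gave 10 higher and 23 lower genes (25.0% and 57.5%), against 31.8% and 33.6%. Its median was -0.38, 36 genes did not overlap, against 81.6%, and 18 passed both the test and a 1.5-fold difference, against 49.5%. Mutation 1 against mutation 3 gave 17 higher and 3 lower genes (42.5% and 7.5%), against 20.2% and 22.5%. Its median was 0.22, 30 genes did not overlap, against 69.8%, and 11 passed both the test and a 1.5-fold difference, against 25.0%. ESPL1, CENPE and CENPF were the 3 genes lower with mutation 1 than with mutation 3. Without wild-type replicate 1, whose spread enters the shared estimate, mutation 2 against 3 gave 30 higher and 5 lower genes, against 36.6% and 36.3% of all genes. Mutation 1 against 2 then gave 12 and 25, against 39.6% and 40.6%, and mutation 1 against 3 gave 25 and 7, against 32.9% and 33.6%. These comparisons share libraries in pairs, so each is given on its own.

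**Figure D3:**
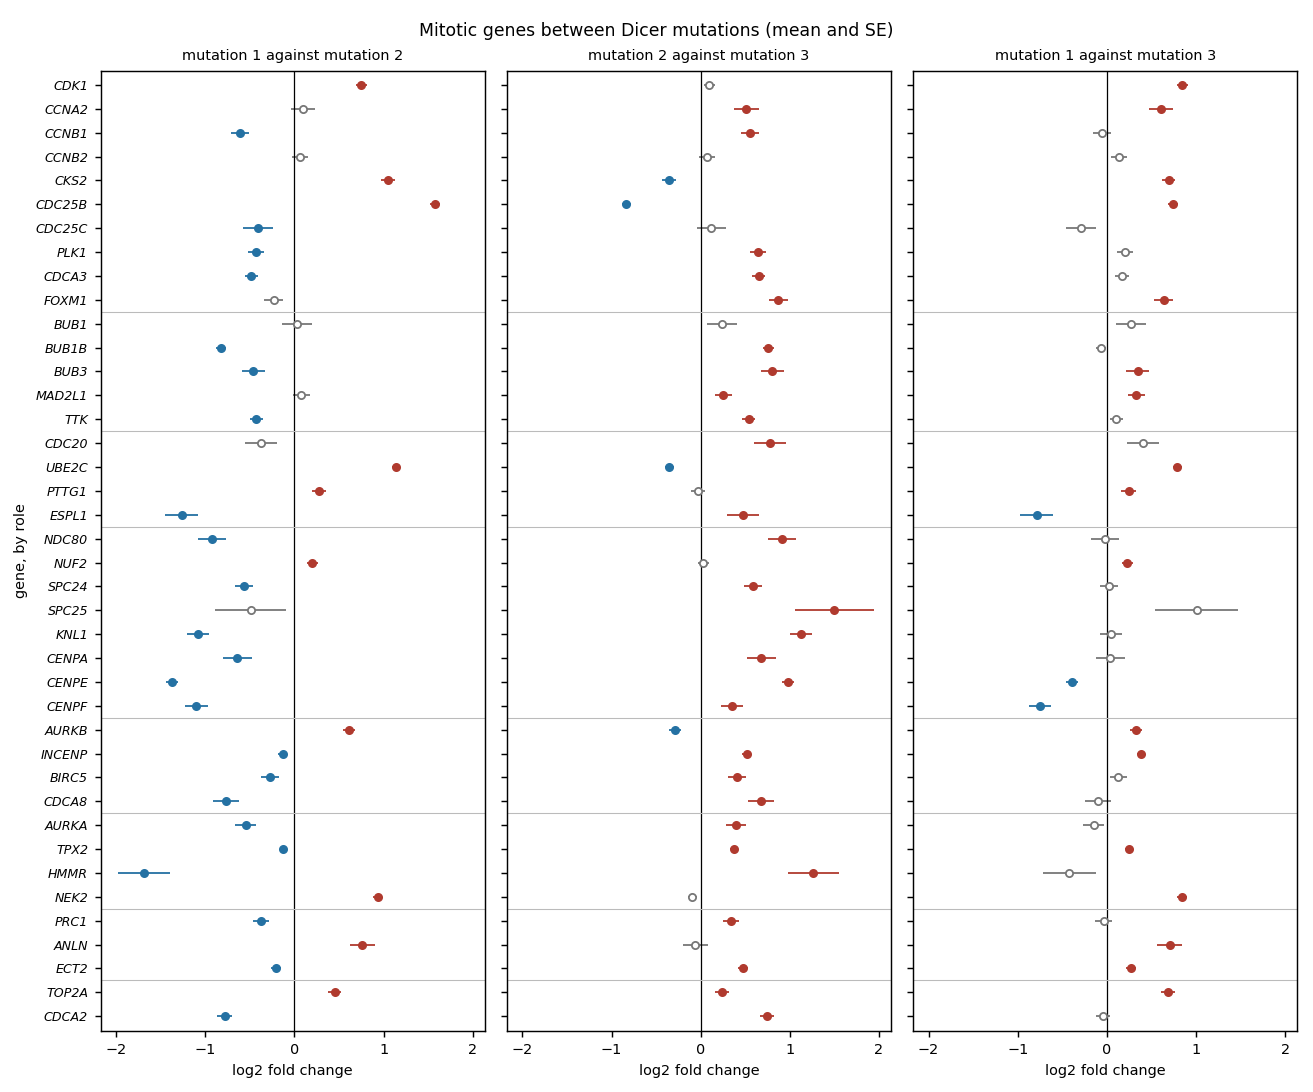
Log2 fold change of the 40 genes in the 3 comparisons between mutations (panels), with bars for 1 SE and filled points for an adjusted p under 0.05 (red higher, blue lower). In mutation 2 against mutation 3 most points lie right of 0, and CDC25B, CKS2, UBE2C and AURKB are the filled points to the left.

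Among the 10 genes of mitotic entry, CDC25B, CKS2 and CDK1 were higher with mutation 1 while CCNB1 and CCNB2 were lower. CDC25B, the phosphatase that starts CDK1 activation (ENSG00000101224, chromosome 20, 3786772 to 3806121, plus strand), was at 262, 274 and 274 CPM in the wild-type libraries, 666, 656 and 676 in those of mutation 1, 209, 231 and 230.1 in those of mutation 2 and 403, 394 and 399 in those of mutation 3. The mutation 1 libraries were the highest, mutation 3 came next and mutation 2 was lowest, with no overlap between any groups. The log2 fold change against wild type for mutations 1, 2 and 3 was 1.30, -0.27 and 0.56 (SE 0.05 each, adjusted p = 9.81e-09, 0.00252 and 6.9e-06). Between mutations 1 and 2 it was 1.57 ± 0.05 (SE, adjusted p = 3.54e-09). CKS2, a small subunit that binds cyclin-dependent kinases (ENSG00000123975, chromosome 9, 89311198 to 89316703, plus strand), was at 113, 97.8 and 96.2 CPM in the wild-type libraries, 196, 193 and 184 in those of mutation 1, 101, 85.8 and 90.6 in those of mutation 2 and 119, 117 and 118 in those of mutation 3. Mutation 1 stood above all other libraries, and mutation 2 overlapped wild type. Its log2 fold change against wild type was 0.90 ± 0.08 (SE, adjusted p = 1.83e-06) with mutation 1 and 0.21 ± 0.08 (SE, adjusted p = 0.036) with mutation 3, and with mutation 2 it was -0.15 and not called (adjusted p = 0.151). CDK1 itself, the kinase that drives entry (ENSG00000170312, chromosome 10, 60778331 to 60794852, plus strand), was at 163, 179 and 181 CPM in the wild-type libraries, 231, 255 and 236 in those of mutation 1, 147, 138 and 145 in those of mutation 2 and 133, 129 and 141 in those of mutation 3. It was higher in every mutation 1 library than in any other and lower with mutations 2 and 3 than in wild type, at 0.46, -0.29 and -0.38 (SE 0.06 each, adjusted p = 7.63e-05, 0.0055 and 0.00044) for mutations 1, 2 and 3. Mutations 2 and 3 overlapped and were not called apart (adjusted p = 0.234).

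CCNB1, the cyclin that activates CDK1 at entry, went opposite to its kinase with mutation 1, while both were lower with mutation 3. CCNB1 (ENSG00000134057, chromosome 5, 69167010 to 69178245, plus strand) was at 372, 271 and 282 CPM in the wild-type libraries, 209, 209 and 207 in those of mutation 1, 323, 318 and 315 in those of mutation 2 and 209, 221 and 222 in those of mutation 3. Mutations 1 and 3 lay below all wild-type and mutation 2 libraries. Its log2 fold change against wild type was -0.56 ± 0.10 (SE, adjusted p = 0.000495) with mutation 1 and -0.50 ± 0.10 (SE, adjusted p = 0.00136) with mutation 3, and for mutation 2 it was 0.05, or 0.21 (adjusted p = 5.19e-09) without wild-type replicate 1. PLK1, the kinase that promotes entry and spindle assembly (ENSG00000166851, chromosome 16, 23677656 to 23690367, plus strand), was at 164, 129 and 127 CPM in the wild-type libraries, 114, 104 and 109.9 in those of mutation 1, 148, 148 and 147 in those of mutation 2 and 96.6, 92.2 and 95.7 in those of mutation 3. It too was lower with mutations 1 and 3 than in wild type, at -0.35 and -0.56 (SE 0.09 each, adjusted p = 0.00452 and 0.000309), and mutation 3 lay below every other library. With mutation 2 it was at 0.08 and not called, and at 0.22 and called without replicate 1. FOXM1, a transcription factor of late cell cycle genes (ENSG00000111206, chromosome 12, 2857681 to 2877155, minus strand), was at 158, 222 and 218 CPM in the wild-type libraries, 146, 137 and 136 in those of mutation 1, 163, 167 and 163 in those of mutation 2 and 89.9, 89.5 and 90.3 in those of mutation 3. Its lowest values were those of mutation 3, at -1.15 ± 0.11 (SE, adjusted p = 6.7e-06) against wild type, and mutation 1 was at -0.51 ± 0.11 (SE, adjusted p = 0.00135). The mutation 2 value of -0.28 was not called (adjusted p = 0.0617), and without wild-type replicate 1 it was -0.41 and called. CDCA3, an adaptor in the destruction of the CDK1 inhibitor WEE1 (ENSG00000111665, chromosome 12, 6844793 to 6852066, minus strand), was at 73.6, 82.8 and 87.7 CPM in the wild-type libraries, 38.4, 40.4 and 41.6 in those of mutation 1, 54.6, 56.4 and 57.3 in those of mutation 2 and 34.1, 35.5 and 37.5 in those of mutation 3. Wild type was above all mutant libraries for this gene. The difference on the log2 scale was -1.02, -0.54 and -1.19 (SE 0.07 each, adjusted p = 4.8e-07, 0.000282 and 3.64e-07) for mutations 1, 2 and 3. The remaining entry genes were CCNA2, CCNB2 and CDC25C. CCNB2, a second B-type cyclin, was lower with each mutation, at -0.22, -0.29 and -0.35. These became -0.10, -0.17 and -0.24 without replicate 1. CCNA2, the S-phase and entry cyclin, was lower with mutation 3, at -0.46, and not called with mutations 1 and 2 (0.14 and 0.05). Without replicate 1 CCNA2 was called higher with both, at 0.38 and 0.29, and lower with mutation 3 at -0.22. CDC25C, another activator of CDK1, was called in none of the 3 comparisons with wild type (adjusted p from 0.217 to 0.804) and lay between 19.4 and 32.6 CPM. Without replicate 1 CDC25C was called higher with mutations 2 and 3, at 0.45 and 0.33. Over the 10 genes, 3 were higher and 5 lower with mutation 1, 0 and 4 with mutation 2, and 2 and 7 with mutation 3. Among all genes tested, 32.5% were higher and 36.5% lower with mutation 1, 16.9% and 20.1% with mutation 2, and 28.1% and 31.2% with mutation 3. The 3 of 10 that were higher with mutation 1 are thus near the share of all genes.

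**Figure D4:**
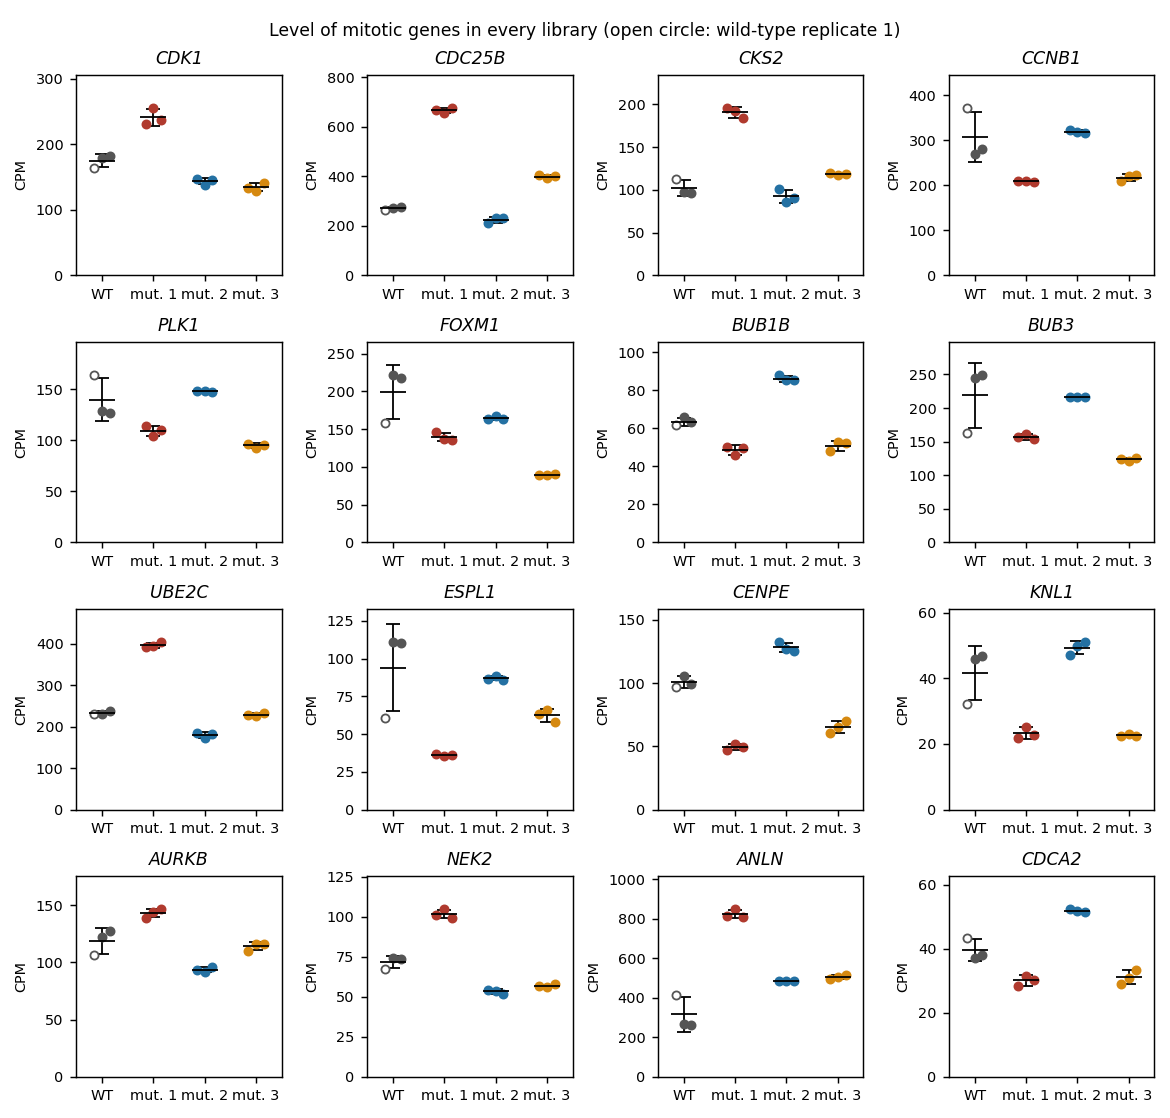
CPM of selected genes (panels) in each library (points) by Dicer group, with the group mean and SD (n = 3) and an open circle for wild-type replicate 1. CDC25B and ANLN are highest with mutation 1, CENPE and BUB1B with mutation 2, and the wild-type points spread widest where replicate 1 differs.

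Of the 5 spindle checkpoint genes, BUB1B and TTK were highest with mutation 2. BUB1B encodes BubR1, part of the complex that holds back CDC20 (ENSG00000156970, chromosome 15, 40161023 to 40221136, plus strand), and was at 61.7, 65.8 and 63.1 CPM in the wild-type libraries, 50.2, 45.9 and 49.8 in those of mutation 1, 88.0, 85.3 and 85.3 in those of mutation 2 and 47.9, 52.7 and 52.2 in those of mutation 3. Mutation 2 was above every other library, and mutations 1 and 3 overlapped each other below wild type. The log2 fold change against wild type was -0.39, 0.44 and -0.32 (SE 0.06 each, adjusted p = 0.000172, 0.000288 and 0.00087) for mutations 1, 2 and 3. BUB1B shares exon sequence with the read-through gene BUB1B-PAK6, over 10.2% of its exon length. TTK, the kinase MPS1 that starts checkpoint signalling (ENSG00000112742, chromosome 6, 80003887 to 80042527, plus strand), was at 64.3, 53.2 and 54.1 CPM in the wild-type libraries, 67.2, 68.3 and 66.6 in those of mutation 1, 94.2, 88.6 and 89.4 in those of mutation 2 and 59.4, 64.2 and 64.0 in those of mutation 3. Mutation 2 again stood above all libraries, at 0.67 ± 0.07 (SE, adjusted p = 9.84e-05) against wild type, and mutation 1 was at 0.24 ± 0.07 (SE, adjusted p = 0.015). The mutation 3 libraries lay between wild-type replicate 1 and replicates 2 and 3 and were not called apart (adjusted p = 0.156), while without replicate 1 they were called higher at 0.23. BUB3, which docks BUB1 and BubR1 on the kinetochore (ENSG00000154473, chromosome 10, 123154277 to 123170467, plus strand), was at 163, 244 and 249 CPM in the wild-type libraries, 156, 161 and 154 in those of mutation 1, 216, 216 and 216 in those of mutation 2 and 124, 122 and 125 in those of mutation 3. Wild-type replicates 2 and 3 were the highest libraries, and replicate 1 lay near mutation 1. Mutation 3 was below all others at -0.82 ± 0.13 (SE, adjusted p = 0.000255), mutation 1 was at -0.48 ± 0.13 (SE, adjusted p = 0.00605), and mutation 2 was at -0.02 and not called with all libraries and -0.19 and called without replicate 1. BUB1, the kinase that marks centromeres, was higher with each mutation, at 0.74, 0.70 and 0.47. Wild-type replicate 1 lay at the level of mutation 3 for BUB1, and replicates 2 and 3 were at 114 and 121 CPM. Without it the 3 values were 1.05, 1.01 and 0.78. MAD2L1, the checkpoint effector MAD2, was higher with mutation 1 at 0.33 ± 0.10 (SE, adjusted p = 0.01) and was not called with mutations 2 and 3. Without replicate 1 it was called higher with each, at 0.48, 0.40 and 0.15. The group counts were 3 higher and 2 lower with mutation 1, 3 and 0 with mutation 2, and 1 and 2 with mutation 3, beside shares over all genes of 32.5% and 36.5%, 16.9% and 20.1%, and 28.1% and 31.2%. With 5 genes, 2 lower calls are near the share of all genes.

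The 4 genes of anaphase and its ubiquitin ligase went separate ways. UBE2C, the ubiquitin-conjugating enzyme of the anaphase-promoting complex (ENSG00000175063, chromosome 20, 45812576 to 45816957, plus strand), was at 232, 232 and 239 CPM in the wild-type libraries, 392, 394 and 404 in those of mutation 1, 185, 172 and 182 in those of mutation 2 and 228, 226 and 234 in those of mutation 3. Mutation 1 was far above the other libraries and mutation 2 below them, while mutation 3 overlapped wild type. In log2 terms the difference from wild type was 0.76 ± 0.05 (SE, adjusted p = 2.07e-07) with mutation 1 and -0.38 ± 0.05 (SE, adjusted p = 0.000201) with mutation 2. UBE2C has 4 named pseudogenes, and how the counting treated reads that match both was not tested. ESPL1, the protease separase that cleaves cohesin (ENSG00000135476, chromosome 12, 53268299 to 53293643, plus strand), was at 60.8, 111 and 111 CPM in the wild-type libraries, 37.0, 35.7 and 35.9 in those of mutation 1, 86.7, 88.4 and 86.1 in those of mutation 2 and 63.4, 66.2 and 57.9 in those of mutation 3. Mutation 1 was below every other library, at -1.38 ± 0.18 (SE, adjusted p = 6.03e-05). Wild-type replicate 1 overlapped mutation 3, which was at -0.59 ± 0.18 (SE, adjusted p = 0.0154), or -0.82 without that library. With mutation 2 it was at -0.11 and not called, and at -0.34 and called without it. CDC20, which activates the complex at anaphase (ENSG00000117399, chromosome 1, 43358955 to 43363203, plus strand), was at 311, 174 and 175 CPM in the wild-type libraries, 206, 211 and 216 in those of mutation 1, 268, 277 and 277 in those of mutation 2 and 159, 158 and 162 in those of mutation 3. Replicate 1 was the highest library of all, and replicates 2 and 3 lay between mutation 3 and mutation 1. With mutation 1 the log2 fold change was -0.06 and not called, and without replicate 1 it was 0.28 (adjusted p = 4.73e-12). With mutation 2 it was 0.32 and not called (adjusted p = 0.193), and 0.65 (adjusted p = 8.58e-39) without replicate 1, the largest of the 3 values in size. With mutation 3 it was -0.46 ± 0.18 (SE, adjusted p = 0.0458), and -0.13 without replicate 1. PTTG1, the separase inhibitor securin, lay between 139 and 182 CPM and was called in none of the comparisons with wild type. Without replicate 1 PTTG1 was called higher with mutation 1, at 0.25.

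The 8 kinetochore and centromere genes were mostly lower with mutations 1 and 3 than with mutation 2. Their summed CPM was 488 to 512 with mutation 1, 646 to 696 with mutation 3, 659.5 to 749 in wild type and 935 to 952 with mutation 2. CENPF alone made up 39.7% to 63.5% of these sums. Without it, mutations 1 and 3 overlapped, at 239 to 255 and 240.0 to 258 CPM, and wild type at 351 to 398 CPM lay just below mutation 2 at 399.6 to 413 CPM. Against wild type, 0 were higher and 6 lower with mutation 1, 2 higher and 0 lower with mutation 2, and 0 higher and 6 lower with mutation 3, where the shares of all genes were 32.5% and 36.5%, 16.9% and 20.1%, and 28.1% and 31.2%. Between mutations 2 and 3, 7 of the 8 were higher with mutation 2 and 0 lower (27.2% and 25.7% of all genes), with a median of 0.79 against 0.00 over all genes. CENPE, the kinesin that carries chromosomes to the spindle equator (ENSG00000138778, chromosome 4, 103105806 to 103198409, minus strand), was at 97.2, 106 and 99.6 CPM in the wild-type libraries, 47.1, 52.1 and 49.2 in those of mutation 1, 132, 127 and 126 in those of mutation 2 and 60.3, 64.9 and 69.9 in those of mutation 3. The 4 groups did not overlap, in the order mutation 1, mutation 3, wild type, mutation 2. Against wild type, the log2 fold change was -1.03, 0.35 and -0.63 (SE 0.07 each, adjusted p = 2.74e-07, 0.0024 and 1.71e-05) for mutations 1, 2 and 3, and -1.37 ± 0.07 (SE, adjusted p = 3.27e-08) for mutation 1 against mutation 2. KNL1, the scaffold that recruits BUB1 and BubR1 (ENSG00000137812, chromosome 15, 40594020 to 40664342, plus strand), was at 32.1, 46.0 and 46.7 CPM in the wild-type libraries, 21.9, 25.2 and 22.9 in those of mutation 1, 47.2, 49.8 and 51.0 in those of mutation 2 and 22.3, 22.9 and 22.6 in those of mutation 3. Mutations 1 and 3 overlapped each other below wild type, at -0.83 and -0.88 (SE 0.13 each, adjusted p = 0.000145 and 0.000142). The mutation 2 libraries were all above wild type, but the difference of 0.25 was not called (adjusted p = 0.142). CENPF, a large outer kinetochore protein (ENSG00000117724, chromosome 1, 214603195 to 214664588, plus strand), was at 262, 394 and 388 CPM in the wild-type libraries, 250.4, 256 and 249 in those of mutation 1, 538, 535 and 548 in those of mutation 2 and 406, 426 and 438 in those of mutation 3. Mutation 2 was highest and mutation 1 lowest, with wild-type replicate 1 just above the mutation 1 libraries. The log2 fold change against wild type was -0.47 ± 0.12 (SE, adjusted p = 0.00634) with mutation 1 and 0.63 ± 0.12 (SE, adjusted p = 0.0027) with mutation 2. With mutation 3 it was 0.28 and not called (adjusted p = 0.072), or 0.12 and called without replicate 1. Mutation 1 against mutation 3 gave -0.75 ± 0.13 (SE, adjusted p = 0.000714).

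The NDC80 complex, which grips the microtubule, was not uniform. NDC80 itself, between 36.7 and 95.0 CPM, was lower with mutations 1 and 3 (-0.83 and -0.81). SPC24, between 32.7 and 60.5 CPM, was lower with the same mutations (-0.54 and -0.57). NUF2, the direct partner of NDC80, lay between 60.4 and 78.0 CPM and was called in no comparison with wild type (adjusted p from 0.0811 to 0.214). Between mutations 1 and 2 its value was 0.20 ± 0.06 (SE, adjusted p = 0.016). SPC25 was counted at 0.296 to 1.68 CPM, so that its value of -1.52 ± 0.44 (SE, adjusted p = 0.0115) with mutation 3 rests on few counts. CENPA, the histone variant that marks centromeres, was between 19.0 and 40.7 CPM and lower with mutations 1 and 3, at -0.56 and -0.60. Its highest library was wild-type replicate 1, without which these values were -0.28 and -0.32, and those of NDC80 were -0.57 and -0.55. Without that library, NDC80, SPC24 and CENPA were also called higher with mutation 2, at 0.36, 0.14 and 0.35, and NUF2 was called with mutations 1 and 3, at 0.11 and -0.12.

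The chromosomal passenger complex, which corrects faulty attachments, changed by subunit. INCENP, its scaffold (ENSG00000149503, chromosome 11, 62123973 to 62153163, plus strand), was at 88.4, 85.9 and 85.5 CPM in the wild-type libraries, 112, 112 and 110.2 in those of mutation 1, 120.2, 121 and 126 in those of mutation 2 and 87.4, 86.7 and 82.9 in those of mutation 3. Mutations 1 and 2 were above wild type and mutation 3 overlapped it. The difference on the log2 scale was 0.36 ± 0.05 (SE, adjusted p = 4.36e-05) with mutation 1 and 0.50 ± 0.05 (SE, adjusted p = 3.61e-05) with mutation 2. AURKB, its kinase (ENSG00000178999, chromosome 17, 8204733 to 8210600, minus strand), was at 106, 123 and 127 CPM in the wild-type libraries, 139, 144 and 146 in those of mutation 1, 93.2, 91.6 and 95.7 in those of mutation 2 and 110.2, 116 and 116 in those of mutation 3. Mutation 1 was highest and mutation 2 lowest, at 0.27 and -0.34 (SE 0.07 each, adjusted p = 0.00439 and 0.00283). Scaffold and kinase were thus both higher with mutation 1, and with mutation 2 the scaffold was higher and the kinase lower. CDCA8, the subunit borealin (ENSG00000134690, chromosome 1, 37692418 to 37709719, plus strand), was at 126, 78.7 and 82.8 CPM in the wild-type libraries, 79.7, 79.6 and 81.8 in those of mutation 1, 140.0, 139 and 132 in those of mutation 2 and 81.9, 87.6 and 88.7 in those of mutation 3. Mutation 2 was above every other library, at 0.52 ± 0.14 (SE, adjusted p = 0.017), and wild-type replicate 1 lay well above replicates 2 and 3. With mutation 3 the value was -0.16 with replicate 1 and 0.10 without it. BIRC5, the subunit survivin, was between 143 and 228 CPM and lower with mutations 1 and 3, at -0.26 and -0.39. These became -0.10 and -0.23 without replicate 1. Calls added without replicate 1 were BIRC5 with mutation 2, at 0.17, and AURKB with mutation 3, at -0.13.

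Among the 4 spindle assembly genes, NEK2 and HMMR went opposite ways with mutation 1. NEK2, a centrosome kinase (ENSG00000117650, chromosome 1, 211658657 to 211675630, minus strand), was at 67.7, 74.3 and 73.5 CPM in the wild-type libraries, 101, 105 and 99.5 in those of mutation 1, 54.4, 54.0 and 51.8 in those of mutation 2 and 56.7, 56.3 and 57.8 in those of mutation 3. Mutation 1 was above all other libraries, and mutations 2 and 3 were below wild type. On the log2 scale the change was 0.50, -0.43 and -0.34 (SE 0.05 each, adjusted p = 9.71e-06, 0.000185 and 0.00031) for mutations 1, 2 and 3. HMMR, a spindle protein also known as a hyaluronan receptor (ENSG00000072571, chromosome 5, 163460203 to 163491945, plus strand), was at 14.7, 7.48 and 6.27 CPM in the wild-type libraries, 4.57, 5.30 and 3.83 in those of mutation 1, 16.1, 12.3 and 15.8 in those of mutation 2 and 5.25, 6.46 and 6.73 in those of mutation 3. Wild-type replicate 1 fell among the mutation 2 libraries and replicates 2 and 3 at or near those of mutation 3. The difference from wild type was called with mutation 1, at -1.05 ± 0.29 (SE, adjusted p = 0.00801). Without replicate 1 it was -0.58 with mutation 1, and mutation 2 went from 0.64, not called, to 1.10 (adjusted p = 1.37e-14). Between mutations, HMMR was at -1.69 ± 0.29 (SE, adjusted p = 0.000412) for mutation 1 against 2 and at 1.26 ± 0.28 (SE, adjusted p = 0.00332) for mutation 2 against 3. TPX2, the activator of Aurora A on the spindle (ENSG00000088325, chromosome 20, 31739271 to 31801805, plus strand), was at 453, 449 and 457 CPM in the wild-type libraries, 429, 430.2 and 428 in those of mutation 1, 473, 466 and 464 in those of mutation 2 and 358, 364 and 364 in those of mutation 3. It spanned the least of the 4, and its wild-type libraries lay close together. Mutation 3 was below all others, at -0.32 ± 0.04 (SE, adjusted p = 7.85e-05), and mutations 1 and 2 were not called apart from wild type (adjusted p = 0.121 and 0.428), although without replicate 1 mutation 1 was called at -0.07. AURKA, the kinase that TPX2 activates, was lower with mutation 1 at -0.32, or -0.13 without replicate 1. It was higher with mutation 2 than with mutation 3 at 0.40. With mutation 2 it was at 0.23 against wild type and not called, and at 0.42 and called without replicate 1.

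Cytokinesis held one of the largest increases. ANLN, the furrow scaffold anillin (ENSG00000011426, chromosome 7, 36389806 to 36453791, plus strand), was at 417, 266 and 264 CPM in the wild-type libraries, 815, 848 and 809 in those of mutation 1, 486, 485 and 487 in those of mutation 2 and 496, 507 and 516 in those of mutation 3. Mutation 1 was far above every other library, mutations 2 and 3 followed, and all wild-type libraries were lower than these, with replicate 1 the highest of them. The log2 fold change was 1.38, 0.62 and 0.68 (SE 0.15, 0.14 and 0.14, adjusted p = 9.33e-06, 0.00648 and 0.00194) for mutations 1, 2 and 3, and without replicate 1 it was 1.64, 0.88 and 0.94. ECT2, the exchange factor that switches on RhoA at the furrow (ENSG00000114346, chromosome 3, 172750682 to 172821474, plus strand), was at 171, 179 and 184 CPM in the wild-type libraries, 156, 164 and 146 in those of mutation 1, 181, 177 and 179 in those of mutation 2 and 126, 126 and 135 in those of mutation 3. It was lower with mutation 3, at -0.47 ± 0.06 (SE, adjusted p = 4.9e-05), and less so with mutation 1, at -0.20 ± 0.06 (SE, adjusted p = 0.00975), while mutation 2 overlapped wild type. PRC1, the microtubule bundler of the midzone, was higher with mutation 2 at 0.29 and was not called with mutations 1 and 3, where its value was -0.08 and -0.05 with replicate 1 and 0.06 and 0.10 without it.

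The 2 genes of chromosome structure also differed from each other. TOP2A, the topoisomerase that untangles sister chromatids (ENSG00000131747, chromosome 17, 40388516 to 40417950, minus strand), was at 599, 741 and 734 CPM in the wild-type libraries, 884, 941 and 879 in those of mutation 1, 678, 644 and 659 in those of mutation 2 and 550.1, 564 and 567 in those of mutation 3. Mutation 1 was above all other libraries and mutation 3 below them. Against wild type, the log2 fold change was 0.38 ± 0.08 (SE, adjusted p = 0.00118) with mutation 1 and -0.30 ± 0.08 (SE, adjusted p = 0.00638) with mutation 3. Mutation 2 was at -0.07 and not called, and at -0.15 and called without replicate 1. CDCA2, the phosphatase-targeting protein Repo-Man (ENSG00000184661, chromosome 8, 25458997 to 25507920, plus strand), was at 43.5, 37.0 and 38.1 CPM in the wild-type libraries, 28.4, 31.5 and 30.3 in those of mutation 1, 52.2, 51.6 and 51.5 in those of mutation 2 and 28.9, 30.9 and 33.2 in those of mutation 3. Mutation 2 was above all other libraries, and mutations 1 and 3 overlapped below wild type. Its log2 fold change was -0.39, 0.39 and -0.35 (SE 0.08 each, adjusted p = 0.00107, 0.00297 and 0.00289) for mutations 1, 2 and 3.

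Levels of different genes were compared per length, as CPM per kilobase of merged exons, averaged over the groups. The merged length covers all annotated transcripts, expressed or not, so the order depends in part on the annotation. This length was 613 bases for CKS2 and 8300 for BUB3. By this measure CKS2 and UBE2C were the most abundant, at 205 and 202 CPM per kilobase, followed by TPX2 at 119, TOP2A at 109, CDC20 at 106 and CCNB1 at 103. The median over the 40 genes was 29.7 CPM per kilobase. Within the NDC80 complex, NUF2 was at 20.1, NDC80 at 16.0 and SPC24 at 15.6 CPM per kilobase, whereas SPC25 was at 0.503, the lowest of all 40. The order among the abundant genes also depended on the plasmid: CDC25B was at 154 CPM per kilobase with mutation 1, above CCNB1 at 81.6, and at 51.8 with mutation 2, below CCNB1 at 125.

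**Figure D5:**
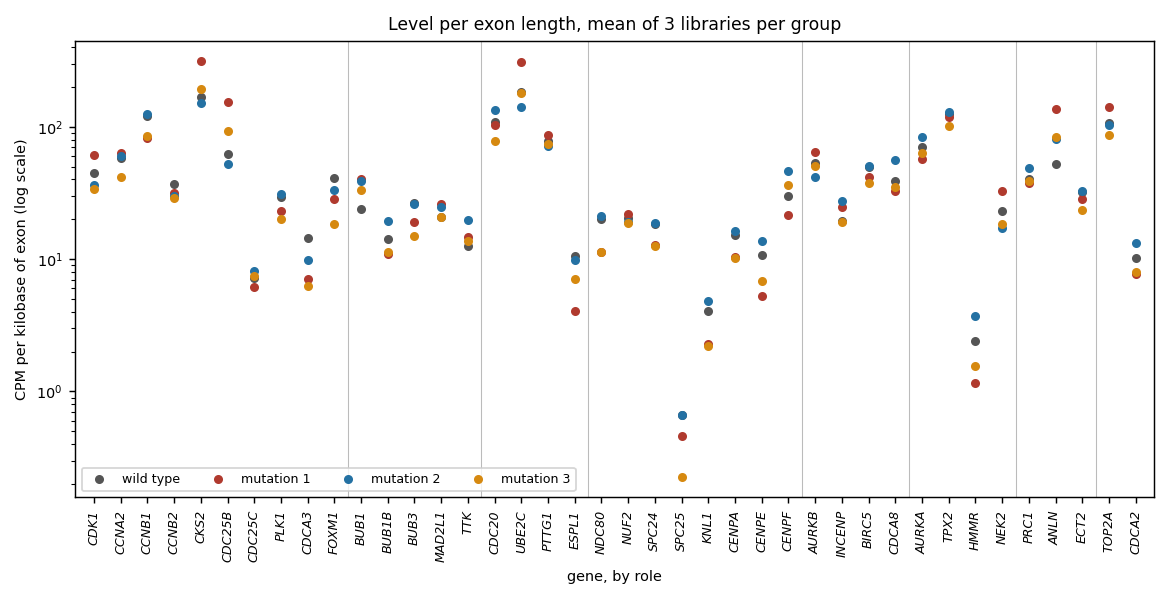
CPM per kilobase of merged exons (log axis) of the 40 genes, with one point per Dicer group. CKS2 and UBE2C are highest and SPC25 is far below the other genes.

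Mitotic genes outside the 40 were counted from 8 further lists holding 144 genes, of which 143 were tested and SKA1 was not. Against wild type, 31 were higher and 85 lower with mutation 1, and 39 higher and 29 lower with mutation 2. With mutation 3, 25 were higher and 88 lower. The shares of all genes were 32.5% and 36.5%, 16.9% and 20.1%, and 28.1% and 31.2% for mutations 1, 2 and 3. Mutation 2 against mutation 3 gave 84 higher and 20 lower, against 27.2% and 25.7% of all genes. The 26 genes of the inner kinetochore, the MIS12 complex of the outer kinetochore and their partners, CENPA loading factors included, gave 21 lower and 3 higher with mutation 1, 7 and 2 with mutation 2, and 20 and 2 with mutation 3, with medians of -0.77, -0.11 and -0.86. CENPB, which binds centromeric satellite DNA, was at 184 ± 6.43 CPM in wild type, 70.4 ± 3.41 under mutation 1, 161 ± 2.08 under mutation 2 and 80.7 ± 2.58 under mutation 3 (means ± SD of 3 libraries, as for the genes below). ZWINT, a partner of KNL1, was lower with mutations 1 and 3, at -1.28 and -1.13 (SE 0.08 each, adjusted p = 1.31e-07 and 6.67e-07), and CENPU of the inner kinetochore was at -0.73 and -0.87.

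Among 22 condensin and cohesin genes, 5 were higher and 15 lower with mutation 1, 12 and 0 with mutation 2, and 3 and 14 with mutation 3, beside the same shares of all genes (32.5% and 36.5%, 16.9% and 20.1%, 28.1% and 31.2%). ESCO2, the acetyltransferase that locks cohesin, was at 20.7 ± 0.452 CPM in wild type, 4.91 ± 0.602 under mutation 1, 27.3 ± 1.29 under mutation 2 and 5.71 ± 0.457 under mutation 3. NCAPG, a condensin subunit, was lower at -1.22 and -0.96 with mutations 1 and 3. NIPBL, the cohesin loader, was higher with each mutation, at 1.30, 0.66 and 1.09. Of the 14 entry control genes, 3 were higher and 11 lower with mutation 1, 2 and 2 with mutation 2, and 2 and 12 with mutation 3. The same shares of all genes apply. The CDC25 family thus split: CDC25A was at 37.2 ± 4.12 CPM in wild type, 6.04 ± 0.440 under mutation 1, 59.0 ± 3.98 under mutation 2 and 16.6 ± 0.585 under mutation 3. Its log2 fold change of -2.62 ± 0.10 (SE, adjusted p = 6.78e-09) with mutation 1 stood beside 1.30 for CDC25B. PKMYT1, a CDK1 inhibitor kinase, was lower at -0.62 and -1.15 with mutations 1 and 3, and CCNF was at -1.50 and -0.79.

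The remaining lists were more mixed. Among all genes, 32.5% were higher and 36.5% lower with mutation 1, 16.9% and 20.1% with mutation 2, and 28.1% and 31.2% with mutation 3. Several counts below are near these shares, such as the 4 of 13 checkpoint genes higher with mutation 1. Among 17 subunits and regulators of the anaphase-promoting complex, 2 were higher and 7 lower with mutation 1, 3 and 6 with mutation 2, and 3 and 10 with mutation 3. ANAPC1, its largest subunit, was higher with each mutation (1.37, 1.14 and 1.00), CDC27 was lower with mutation 1 (-0.85), and the inhibitor FBXO5 was lower with mutations 1 and 3 (-0.61 and -0.55) and higher with mutation 2 (0.33). The 13 other checkpoint genes gave 4 higher and 6 lower, 6 and 3, and 3 and 8 for mutations 1, 2 and 3. SPDL1 (spindly) was at -1.11, 0.34 and -1.10, and ZWILCH at -0.66, 0.20 and -1.10. BOD1 went the other way, at 0.85, -0.20 and 0.50. The 25 centrosome and spindle genes gave 5 higher and 12 lower, 9 and 7, and 6 and 12. HAUS8, an augmin subunit, was lower with each mutation (-2.88, -0.57 and -1.55), and CKAP2L and STIL were lower with mutation 1 (-0.98 and -0.50). The 10 further cytokinesis genes gave 5 and 5, 1 and 2, and 1 and 4. RACGAP1, the partner of ECT2, was lower with each mutation (-0.88, -0.40 and -0.91). SEPTIN9 was higher with mutations 1 and 3 (0.33 and 0.70), and SEPTIN2 was higher with mutation 1 (0.60) and lower with mutation 3 (-0.41).

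The DREAM and B-MYB complexes, which bind promoters with the homology region shown above, were also measured. Of 16 genes, 4 were higher and 8 lower with mutation 1, 4 and 2 with mutation 2, and 5 and 8 with mutation 3. The shares of all genes were 32.5% and 36.5%, 16.9% and 20.1%, and 28.1% and 31.2%. RBL2, the pocket protein p130 of the DREAM repressor, was at 25.0 ± 2.21 CPM in wild type, 80.3 ± 1.37 under mutation 1, 27.7 ± 0.891 under mutation 2 and 82.6 ± 1.43 under mutation 3. The related RBL1, p107, was at 59.2 ± 4.33, 31.7 ± 1.79, 90.9 ± 1.69 and 31.0 ± 2.36 CPM in the same order. RBL2 was thus high and RBL1 low with mutations 1 and 3, at 1.68 and 1.72 (SE 0.07 each, adjusted p = 8.9e-09 and 2.11e-08) for RBL2 and -0.90 and -0.93 (SE 0.08 each, adjusted p = 1.83e-06 and 2.73e-06) for RBL1. TFDP1, the partner of E2F factors, was lower with mutations 1 and 3, at -1.44 and -1.46.

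Some values carry a counting limit. Reads were counted without strand, and in GENCODE v29 an exon of 13 of the 40 genes is overlapped by another gene, over a median of 7.35% of its exon length. FOXM1 is overlapped most, by ITFG2 on the opposite strand over 15.9%, and PLK1 over 12.5%, so reads from either gene there cannot be told apart. Named pseudogenes exist for 7 of the 40: AURKA, BUB1, BUB3, CCNB2, CDC20, NEK2 and UBE2C.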

How the data were processed

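RNA selected for poly(A) from MDA-MB-231 cells was sequenced in 12 libraries, 3 for each of 4 Dicer plasmids. Per the file headers, the authors' files hold raw counts, read pairs assigned to each gene by featureCounts 2.0.6 without strand, over exons grouped by gene ID of an hg38 Ensembl annotation, with a minimum mapping quality of 10. The submitters' processing notes list STAR, SAMtools, cutadapt 1.9.1, FastQC 0.11.8 and DESeq2, with no roles given. Gene symbols were taken from a list of gene names and, where it had none, from GENCODE v29, which also gave exon lengths and overlaps. GENCODE v29 holds 56591 of the 64252 gene IDs and may not be the authors' annotation. Promoter sequences and their coordinates came from RefSeq.

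Counts were analysed with edgeR 4.0.16 in R 4.3.3: filterByExpr (minimum count 10, minimum total 15), trimmed mean scaling, and quasi-likelihood tests on all 12 libraries together with 8 residual degrees of freedom. Adjusted p-values are Benjamini-Hochberg values over all 15094 genes tested, one comparison at a time, with a threshold of 0.05. The 40 genes and all lists were chosen with earlier results of these data known. Values in every library are given for the 3 genes of each role group with the lowest F test p (2 in groups of under 4), for CDK1, CCNB1, PLK1 and FOXM1, and for genes called in opposite directions against wild type. In other lists the 3 genes with the lowest F test p are named. Other ways of scaling, filtering and testing, including DESeq2 1.42.0, were tried. In simulated data, 200 of 15094 genes were changed 2-fold or 4-fold with mutation 1. Against wild type, 148 of these 200 were recovered, with 10 false calls. In the real data 32.5% of genes were called higher and 36.5% lower, so these figures describe only the simulated setting. Figures were drawn with matplotlib 3.10.9 in Python 3.11.15.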

Additional observations from a re-analysis of the deposited data

How the results depend on the processing

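No paired analysis was possible because the labels give the mutant libraries no replicate numbers. Leaving out 1 library at a time, the counts of higher and lower genes ranged over 10 to 16 and 14 to 20 for mutation 1 against wild type, 8 to 22 and 6 to 11 for mutation 2, and 2 to 10 and 21 to 25 for mutation 3. The higher end came without wild-type replicate 1, where calls among all genes were also more frequent. Shares of all genes higher and lower were then 40.2% and 42.5%, 33.0% and 34.9%, and 38.2% and 38.8% for mutations 1, 2 and 3. Between mutations these counts ranged over 19 to 25 lower for mutation 1 against 2, 13 to 25 higher and 3 to 7 lower for mutation 1 against 3, and 23 to 30 higher and 4 to 5 lower for mutation 2 against 3. Requiring a call to be at least 1.5-fold apart left 5 higher and 6 lower for mutation 1, 4 and 0 for mutation 2, and 1 and 9 for mutation 3 against wild type. It left 11 lower for mutation 1 against 2, 9 higher for mutation 1 against 3, and 15 higher and 1 lower for mutation 2 against 3. Among all genes, in either direction, 52.6%, 19.3% and 41.1% met this requirement for mutations 1, 2 and 3 against wild type. For mutation 1 against 2, 1 against 3 and 2 against 3 these shares were 49.5%, 25.0% and 34.6%. Fitting only the groups compared gave 6 higher and 4 lower for mutation 2, 2 higher for mutation 3, and 7 lower for mutation 1 against 3. The same without wild-type replicate 1, an alternative chosen after seeing the data, gave 23 higher and 11 lower for mutation 2 and 10 higher for mutation 3. Library totals gave 2 higher for mutation 3. Shares of all genes are not given for the other single omissions, the fits of only the groups compared or library totals. Those counts therefore show how calls move with the setting and are not results about the 40 genes. Every other count over the 40 genes stayed within 1.5 times of its value under each of the other alternatives.

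Single values turned sign without wild-type replicate 1: MAD2L1 with mutation 3 to 0.15 (0.16 with only the groups compared), CDC20 with mutation 1 to 0.28 (0.29), CDCA8 with mutation 3 to 0.098 (0.10) and PRC1 with mutation 3 to 0.10 (0.11), while PRC1 with mutation 1 turned to 0.079 in the latter fit. Over all single omissions these ranged from -0.072 to 0.15, -0.21 to 0.28, -0.28 to 0.098, -0.13 to 0.10 and -0.17 to 0.06 in that order. Library totals moved NUF2 between mutations 1 and 2 to -0.00789, where single omissions gave 0.16 to 0.24, and the median of all genes by more than 0.1 in 4 of the comparisons, to -0.25 for mutation 1 and -0.13 for mutation 3 against wild type, -0.23 for mutation 1 against mutation 2, and 0.12 for mutation 2 against 3. A value not called in either fit was not counted as turned. Of 240 single values, DESeq2 left 234 on the same side of the threshold and library totals 214. Omitting wild-type replicate 1 changed the most: 192 stayed the same, 44 became called and 4 turned. Fitting only the groups compared left 201 of 239 the same. The cause of these changes was not tested. At 0.296 to 1.68 CPM, SPC25 rested on few counts, and the cause of its low level was not tested. The dependence on 1 wild-type library and the shared wild-type group limit every comparison with wild type. The unknown source of the replicates limits every comparison, those between mutations included.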
